A study of Mus musculus with 6 samples.

Results

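Histone genes were examined in RNA-Seq libraries of long-term hematopoietic stem cells (LT-HSCs, CD150+CD48-LSK) sorted from the bone marrow of C57BL/6 mice. The 3 WT and 3 Foxm1 HET (Foxm1 heterozygous) libraries came from mice at 8 weeks of age. The titles of the Foxm1 HET libraries name a floxed Foxm1 allele and no Cre, and the study uses Tie2-Cre, which acts in endothelial and hematopoietic cells, as well as Mx1-Cre without stating which of them drove deletion in the sequenced mice. The study's methods name 3 pairs of heterozygous and control mice as the source, so p-values measure the spread between these libraries, which holds technical variation too. Of the 12179 genes in the deposited normalized table, 55 are histone genes by their symbols, and their read counts were taken by gene identifier from the count table of 27179 genes. They comprise 45 genes with Hist1 to Hist4 symbols, called clustered here, and 10 variant genes with other symbols (H1f0, H1fx, H2afj, H2afv, H2afx, H2afy, H2afy3, H2afz, H3f3a and H3f3b). Of the clustered genes, 37 carry Hist1 symbols on chromosome 13, 6 Hist2 symbols on chromosome 3, 1 a Hist3 symbol on chromosome 11 and 1 a Hist4 symbol on chromosome 6. This split follows symbols and not positions. H2afj (chr6:136808248-136810074) lies near Hist4h4 (chr6:136801553-136804431), and Hist1h2al (chr13:51200084-51205954) lies far from the other Hist1 genes.

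Histones are the proteins around which nuclear DNA is wound. Histones H2A, H2B, H3 and H4 build the nucleosome core, and H1 binds the linker DNA between nucleosomes. The clustered genes supply new histones when DNA is copied, and most of their mRNAs are made in S phase and end in a stem-loop in place of a poly(A) tail. Variant genes are transcribed outside S phase as well and mostly yield polyadenylated mRNAs. LT-HSCs are known to be mainly quiescent, and Foxm1 is a transcription factor known for driving genes of the G2 and M phases. The labels describe rRNA-depleted total RNA libraries, which keep mRNAs without a poly(A) tail, whereas the study's methods name a library kit from another maker.

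The 3′ stem-loop is shown here because it was found mostly in clustered genes. Histone mRNAs that end in it carry no poly(A) tail for a library to capture. A 16-base match to the histone stem-loop was found in GENCODE M21 transcripts of 34 of the 45 clustered genes and of 1 of the 10 variants, H2afx, which encodes the H2A.X histone phosphorylated at DNA breaks. It was found on the sense strand in 86 of 55450 genes of that annotation (0.155%). In the 34 clustered genes it started between 21 and 54 bases after the stop codon, with a median of 31. Of the 11 clustered genes without a match, 9 are counted as having fewer than 70 annotated bases after the stop codon. Hist1h2al is among these 9 only because no coding sequence was found for it. For the others of the 9, the window was too short to hold the farthest match seen. There were 8 forms among the 35 genes, and those of 5 genes described below follow, written as DNA from 5′ to 3′ with the 4-base loop in capitals. 
Hist2h3c1 (H3): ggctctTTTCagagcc
Hist1h1e (H1): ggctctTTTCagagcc
Hist1h4d (H4): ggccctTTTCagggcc
Hist2h4 (H4): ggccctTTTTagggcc
H2afx (variant): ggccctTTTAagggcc
The form printed for Hist2h3c1 and Hist1h1e was shared by 19 genes of classes H1, H2A, H2B and H3. The stem printed for Hist1h4d and Hist2h4 occurred in all 8 clustered H4 genes and in H2afx. The loops of Hist1h4d and Hist2h4 differed. Annotated transcripts of the genes printed above ran on for between 770 (Hist1h4d) and 1257 (Hist2h4) bases past the stem-loop. Whether their reads came from mRNAs that end in it was not tested.

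Promoters were described because clustered histone genes are transcribed together in S phase. RefSeq promoters of GRCm38.p6, from 250 bases before to 50 bases after the start, were matched for 39 clustered and 8 variant genes. Some clustered promoters overlap on opposite strands, such as those of Hist1h2ad and Hist1h2bf and of Hist1h2ak and Hist1h2bn. There the same motif can count for both genes. CCAAT, searched on both strands, was present in 35 of the 39 clustered promoters (89.7%), in 5 of the 8 variant promoters and in 37.9% of all 27025 promoters. TATAAA, also on both strands, was present in 23 clustered promoters (59.0%), in 1 variant promoter and in 14.2% of all promoters. TTTGAA, the cell cycle homology region letters of many G2 and M phase genes, was present in 18 clustered promoters (46.2%), in 1 variant promoter and in 18.1% of all promoters. The 250 bases before the start of Hist1h1b, whose genotypes did not overlap (below), are shown with CCAAT (either strand) and TATAAA in capitals, which do not overlap each other there. They lie at chr13:21780626-21780875 on the minus strand of GRCm38.p6.
Hist1h1b promoter: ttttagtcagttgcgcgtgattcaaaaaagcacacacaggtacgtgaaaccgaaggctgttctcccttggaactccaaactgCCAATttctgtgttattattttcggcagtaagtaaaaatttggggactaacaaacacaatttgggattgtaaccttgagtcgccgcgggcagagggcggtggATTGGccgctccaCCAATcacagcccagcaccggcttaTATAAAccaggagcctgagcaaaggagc

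Clustered genes are near copies of one another, so a 50-base read often cannot be assigned to 1 of them. Over the coding sequences, the median share of 50-base stretches also found in a gene elsewhere was 70.7% for 44 clustered genes and 11.6% for 9 variants. The clustered H1 genes shared least (median 10.9%) and the H3 genes most (81.8%). Counted bases equalled the coding bases, within 3 bases, for 20 of these 44 genes, so that reads on their stem-loops were not counted. A further 32 histone genes of the count table are outside the normalized table. They had at most 4 reads in any library and 0 in all 6 libraries for 23 of them. Over whole transcripts, the median shared share was 71.5% for the 31 of them with a transcript sequence, which include variants such as H3f3c. It was 34.7% for the 55 histone genes of the normalized table and 40.1% for the clustered genes among those. How the authors' counting treated reads that fit several genes is not given in the sources used here, and its part in these values was not tested.

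Libraries held between 14573002 and 25798509 counted reads, and between 4467 and 9894 genes with at least 10 reads. Foxm1 HET replicate 2 had the fewest of both. Read counts of Foxm1 were 1182, 2615 and 2942 in the WT libraries against 659, 5 and 742 in the Foxm1 HET libraries (replicates 1, 2 and 3 of each, as throughout), without overlap. Its log2 fold change was -3.30 (SE 2.33, adjusted p = 0.961, edgeR's quasi-likelihood test). Of the 10 LT-HSC markers, 6 had at least 10 reads in all libraries. Cd48, which the sort excludes, lay at 0.0625 to 292 CPM in the WT libraries, highest in replicate 2, and at 0.526 to 33.7 CPM in the Foxm1 HET libraries. CPM is used here for reads scaled to library size with TMM factors, edgeR's correction for differing composition. Granulocyte markers summed to between 1162 and 7469 CPM in the WT libraries and between 730.6 and 9553 CPM in Foxm1 HET, and 5 of the 6 reached 10 reads in all libraries. Prtn3 among these 6 was higher in log2 CPM in every Foxm1 HET library (4.12% over all genes tested). Macrophage markers summed to between 1773 and 4936 CPM in WT and between 462 and 2618 CPM in Foxm1 HET. The 4 erythroid markers summed to between 36.4 and 64.2 CPM in the WT libraries and between 3.24 and 9.78 CPM in the Foxm1 HET libraries, without overlap. The summed CPM of the 5 B cell markers did not overlap either, at 12.8 to 269 for WT against 0 to 4.46 for Foxm1 HET. Cd79a, Ebf1 and Ms4a1 had no more than 3 reads in any library. Taken singly, none of the 3 erythroid markers and the 1 B cell marker tested was without overlap in log2 CPM. Over all genes tested, 8.68% were. The 3 T cell markers reached at most 6.00 CPM for WT against 18.8 CPM for Foxm1 HET, and the 4 megakaryocyte markers 10.5 against 9.27 CPM. The part of other cell types in the histone counts was not tested, and in bulk samples fewer cells of a type and less RNA per cell cannot be told apart.

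Histone genes were present or nearly absent from library to library, as were most genes in these data. Of the 45 clustered genes, the number with at least 10 reads was 26, 16 and 19 in WT replicates 1 to 3 and 31, 22 and 21 in Foxm1 HET replicates 1 to 3. Only 5 of them reached 10 reads in all 6 libraries: Hist1h1c, Hist1h1e, Hist3h2a, Hist2h3c1 and Hist1h4d. Of the variants, H1f0, H2afy, H2afz and H3f3a did so. Of the 29 clustered genes that reached 100 reads in some library, 22 (75.9%) had at most 3 reads in another. The same held for 3 of 9 variants and for 57.8% of the 8091 genes that were tested and reached 100 reads.

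**Figure D1:**
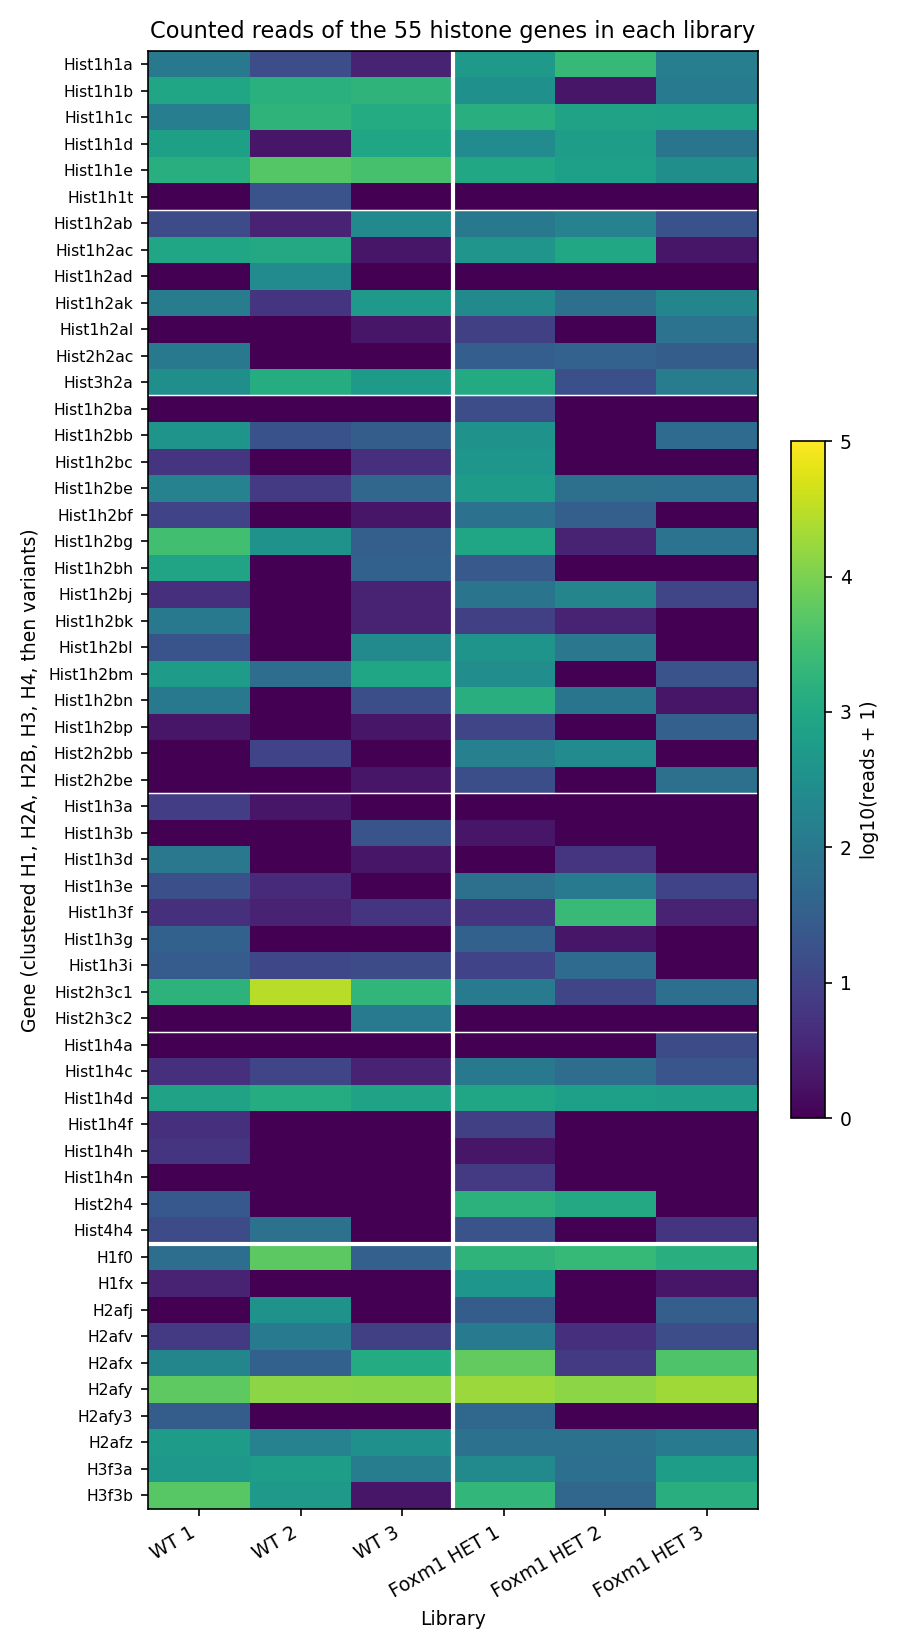
Counted reads of the 55 histone genes (rows) in the 6 libraries (columns), coloured by log10(reads + 1). H2afy and Hist1h4d are bright across all columns, whereas most clustered genes change from bright to dark between libraries of the same genotype.

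Summed over the 45 clustered genes, RPM (counted reads scaled to the library total alone) was 632, 1797 and 589 in the WT libraries against 508, 736 and 112 in the Foxm1 HET libraries. A single gene, Hist2h3c1, gave 69.8% of this sum in WT replicate 2. Without it the sums were 547, 542 and 500.2 in the WT libraries against 503, 735 and 110 in the Foxm1 HET libraries. The 3 WT libraries then lay close together, and the Foxm1 HET libraries lay on either side of them or among them, with replicate 3 lowest. Counting error was small beside these differences, with 95% Wilson intervals from 108 to 116 RPM for the lowest sum and from 1780 to 1814 for the highest, which cover counting error only. With TMM scaling, which raised Foxm1 HET replicate 2 and lowered the other 2 Foxm1 HET libraries, the clustered sum was 1066 ± 671 CPM (SD, n = 3) for WT against 689 ± 850 CPM (SD, n = 3) for Foxm1 HET.

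The variant genes summed to 603, 897 and 672 RPM in the WT libraries against 1123, 1075 and 1061 RPM in the Foxm1 HET libraries. The Foxm1 HET libraries were all above the WT libraries on this scale. On the TMM scale they overlapped, at 788 ± 209 CPM (SD, n = 3) for WT against 1275 ± 993 CPM (SD, n = 3) for Foxm1 HET. H2afy, which encodes macroH2A1, supplied between 46.9% and 88.3% of variant reads in each library.

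**Figure D2:**
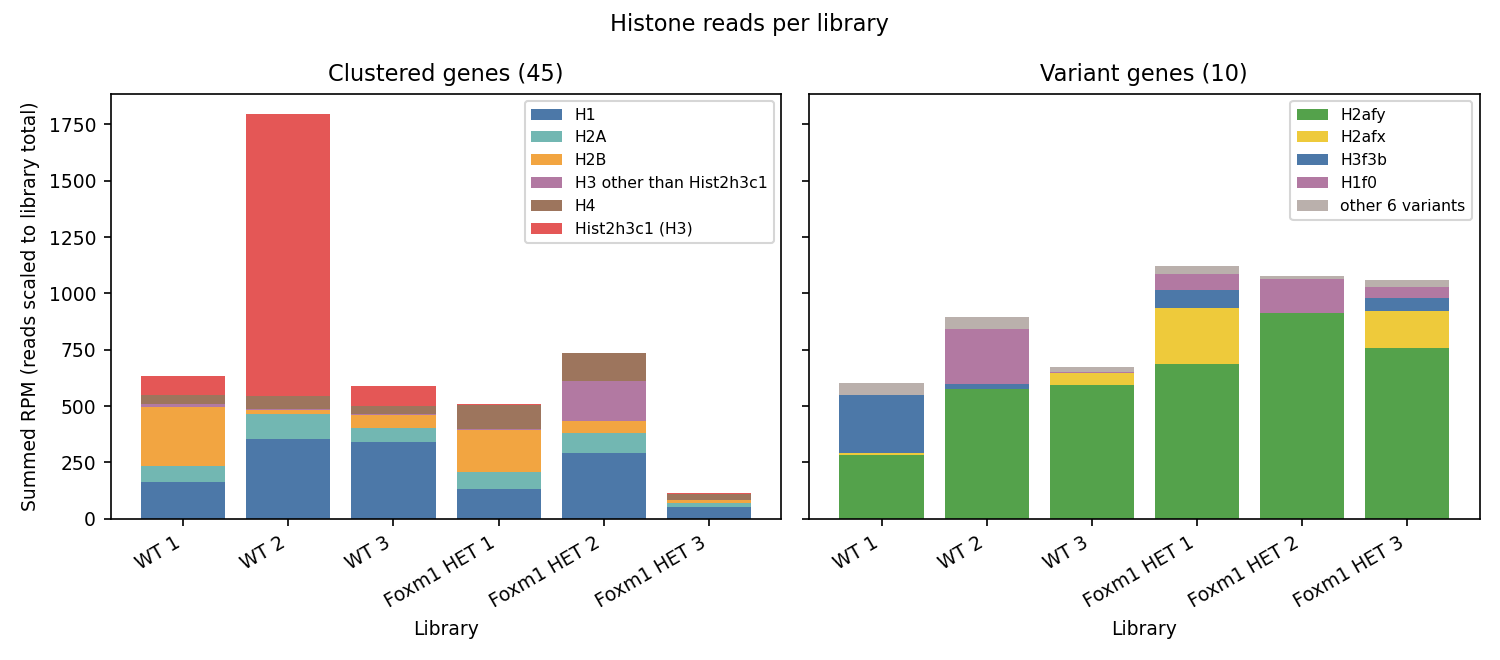
Summed RPM (reads scaled to the library total) of clustered genes (left, by class with Hist2h3c1 apart) and of variant genes (right) in each library, without replicate averaging. WT replicate 2 stands at 1797 on the left because of Hist2h3c1, and the 3 Foxm1 HET libraries stand between 1061 and 1123 on the right.

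Of the 55 histone genes, 32 passed edgeR's filter on low counts (24 clustered and 8 variant) and were tested among 8195 genes. None had an adjusted p under 0.05 by edgeR's quasi-likelihood test, where 27 of all genes tested (0.329%) did, and DESeq2 called Hist2h3c1 among the 25 histone genes to which it gave an adjusted p, against 194 of 6195 genes (3.13%) in all. At an unadjusted p under 0.05, Hist2h4 and Hist1h1a were higher in Foxm1 HET and Hist2h3c1 was lower. Over all genes tested, 3.44% were higher and 2.59% lower at that level. The 24 clustered genes had a median log2 fold change of 0.19, with 14 above 0 and 10 below, and the 8 variants one of -0.69, with 3 above and 5 below. The median over all 8195 genes was -0.26, and the quartiles were -2.05 and 1.49 for the clustered genes and -1.74 and 1.40 for all genes. The median standard error was 2.87 for the clustered genes, so that differences of several log2 units were within the error of most of them.

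**Figure D3:**
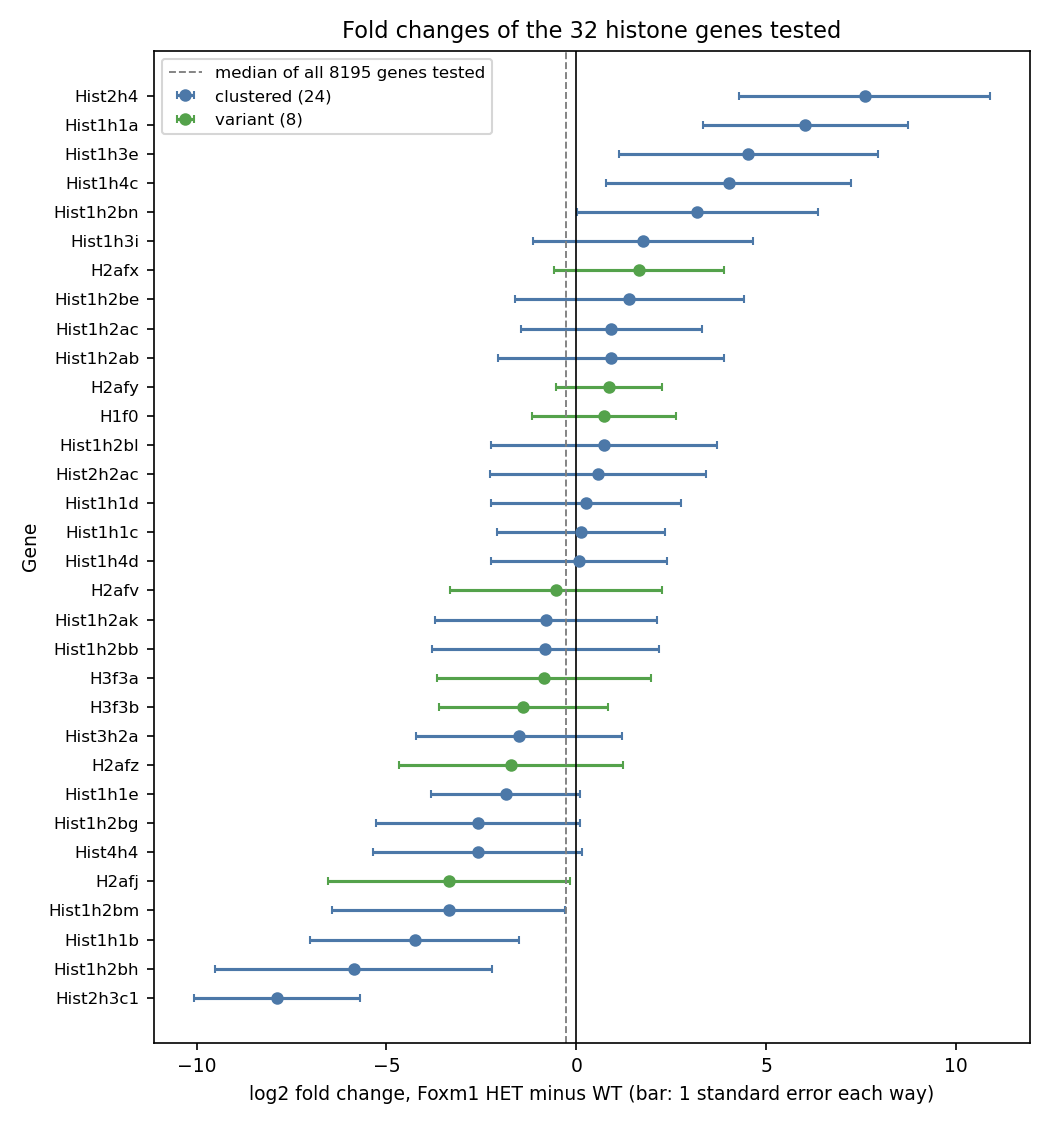
Log2 fold changes (Foxm1 HET minus WT) of the 32 histone genes tested, with 1 standard error on each side, clustered genes in blue and variants in green. Hist2h3c1 at -7.89 and Hist2h4 at 7.59 lie at the ends, and most other bars cross 0.

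The genotypes did not overlap in log2 CPM for 3 of the 32 genes. Hist2h3c1 and Hist1h1b were lower in every Foxm1 HET library (over all genes tested, 4.55% were), and Hist1h4c was higher in every one (4.12% over all genes). With libraries scaled by their totals alone, the count was 7 of 32, a scaling choice made for this count after the values were seen. Hist1h1e and H2afz then joined the lower genes (2.92% over all genes) and Hist1h1a and H2afy the higher genes (5.05% over all genes). With 3 libraries against 3, the two-sided exact permutation test cannot go below p = 0.1, the value it gave for Hist2h3c1, Hist1h1b and Hist1h4c.

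**Figure D4:**
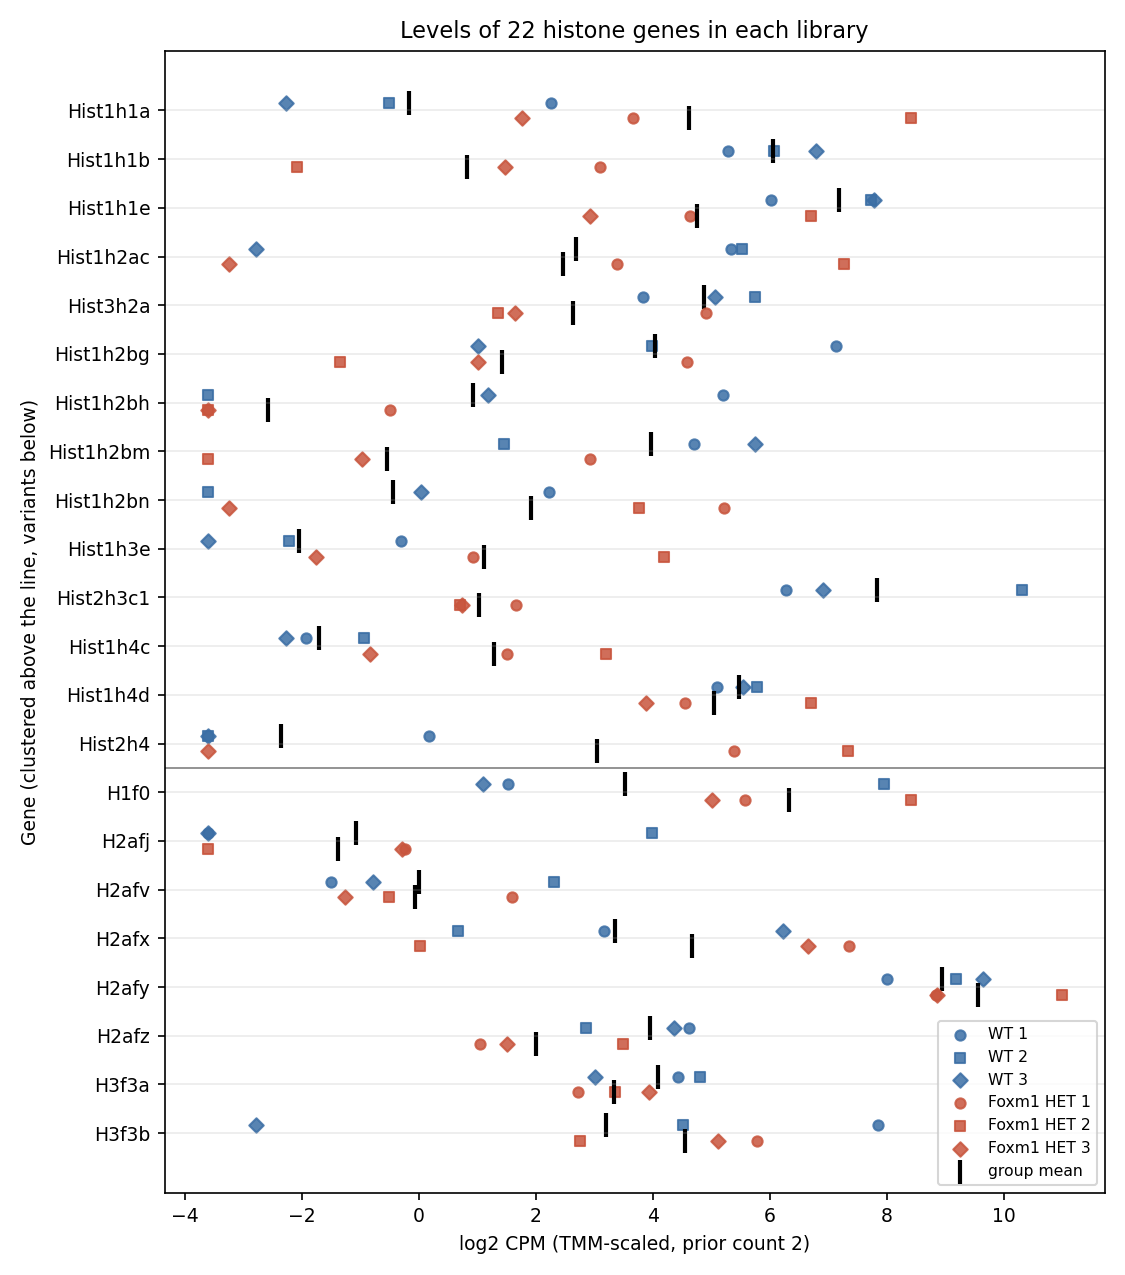
Log2 CPM of 22 histone genes in each library, WT in blue and Foxm1 HET in red, with the marker shape giving the replicate number and a black bar the group mean. The blue and red points are apart for Hist2h3c1, Hist1h1b and Hist1h4c and overlap in range for the others.

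Hist2h3c1, an H3 gene of the Hist2 cluster at chr3:96246685-96248509 (GRCm38, plus strand), had the smallest p of the histone genes. It had 1711, 28877 and 1916 reads in the WT libraries against 117, 10 and 66 in the Foxm1 HET libraries. Every Foxm1 HET library was far below every WT library, and WT replicate 2 was far above the other WT libraries. In log2 CPM this was 7.83 ± 2.18 (SD, n = 3) for WT against 1.03 ± 0.54 (SD, n = 3) for Foxm1 HET. edgeR estimated a log2 fold change of -7.89 (SE 2.19), with an adjusted p of 0.0747 by edgeR. DESeq2 gave an adjusted p of 0.000232, and the 14 alternatives ranged from that value to 1. It ran from -8.39 to -5.60 as each library was left out, smallest in size without WT replicate 2.

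Of the 1776 distinct 50-base stretches of Hist2h3c1, 617 (34.7%) were also found in its neighbour Hist2h3c2, and they included its whole coding sequence. Hist2h3c2 had 110 reads in WT replicate 3 and 0 elsewhere, so that summing both genes left the order of the libraries as it was. Hist2h3c1 was the most counted clustered H3 gene in 5 of the 6 libraries. In Foxm1 HET replicate 2 Hist1h3f took this place, with 2454 reads against 2 to 5 in the other libraries, and 92.8% of clustered H3 reads there. Hist1h3f did not pass the filter, since it was present in a single library.

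Hist1h3e, an H3 gene of the Hist1 cluster, had 16, 3 and 0 reads in the WT libraries against 69, 118 and 9 in the Foxm1 HET libraries. The ranges overlapped. Its log2 fold change was 4.53 (SE 3.40, adjusted p = 0.971, edgeR), or 1.87 without Foxm1 HET replicate 2, and 70.7% of its coding stretches were shared.

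Among H4 genes, which encode the same protein in nearly all cases, Hist1h4d was the steadiest. Its reads were 752, 1243 and 745 in the WT libraries against 888, 676 and 612 in the Foxm1 HET libraries. The ranges overlapped and no library lacked it. In log2 CPM it measured 5.47 ± 0.35 (SD, n = 3) for WT against 5.04 ± 1.48 (SD, n = 3) for Foxm1 HET, and the log2 fold change was 0.07 (SE 2.31, adjusted p = 0.998, edgeR). Its sign turned with several alternatives. Of its coding stretches, 42.2% were shared.

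Hist2h4 lies in the Hist2 cluster at chr3:96262970-96263317 on the minus strand, near Hist2h3c1. It had 23, 0 and 0 reads in the WT libraries against 1603, 1052 and 0 in the Foxm1 HET libraries. It was high in 2 Foxm1 HET libraries and absent from the third, so the ranges overlapped. edgeR's log2 fold change was 7.59 (SE 3.30, adjusted p = 0.658), a value that depends on the prior count because several libraries are at 0. The log2 fold change was 13.61 without WT replicate 1 and 5.97 without Foxm1 HET replicate 2. Its coding sequence was nearly its own, with 6.08% of stretches shared. In the 2 libraries where it was high it was the leading H4 gene, and in the other 4 libraries Hist1h4d led with over 93% of H4 reads.

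Hist1h4c had 4, 10 and 2 reads in the WT libraries against 105, 59 and 20 in the Foxm1 HET libraries. All Foxm1 HET libraries were above all WT libraries, at low counts. For this gene the log2 fold change was 4.01 (SE 3.22, adjusted p = 0.982, edgeR), between 2.73 and 4.68 as each library was left out. Of its coding stretches, 57.4% were shared. The other H4 gene tested, Hist4h4, had at most 73 reads.

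Among the clustered linker histone H1 genes, Hist1h1e lies on the minus strand at chr13:23620628-23622558, and its reads numbered 1442, 4833 and 3514 in the WT libraries against 942, 678 and 315 in the Foxm1 HET libraries. The read counts did not overlap, but with TMM scaling Foxm1 HET replicate 2 moved into the WT range. Its log2 CPM came to 7.18 ± 1.0 (SD, n = 3) for WT against 4.76 ± 1.89 (SD, n = 3) for Foxm1 HET. The log2 fold change was -1.87 (SE 1.96, adjusted p = 0.998, edgeR), or -3.30 without Foxm1 HET replicate 2, and stayed below 0 in all 14 alternatives. Of its counted bases, 10.8% also belong to Hist1h2be on the same strand.

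Hist1h1b, on the minus strand at chr13:21779883-21780554, had 865, 1522 and 1766 reads in the WT libraries against 322, 1 and 112 in the Foxm1 HET libraries. No Foxm1 HET library reached the WT range. Its log2 CPM came to 6.05 ± 0.75 (SD, n = 3) for WT against 0.82 ± 2.65 (SD, n = 3) for Foxm1 HET. The log2 fold change was -4.26 (SE 2.76, adjusted p = 0.941, edgeR), and ran from -5.50 to -3.63 as each library was left out. None of its 50-base stretches was shared with another gene.

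Hist1h1a lay on the other side of 0, with 104, 14 and 2 reads in the WT libraries against 480, 2214 and 139 in the Foxm1 HET libraries. Every count in Foxm1 HET exceeded those in WT, while log2 CPM with TMM scaling overlapped. edgeR's log2 fold change was 6.03 (SE 2.69, adjusted p = 0.702). It was 2.19 without Foxm1 HET replicate 2, which held most of the reads. Hist1h1c and Hist1h1d had log2 fold changes of 0.12 (SE 2.22) and 0.26 (SE 2.51), and their libraries overlapped. Hist1h1t, the testis H1 gene, had 18 reads in WT replicate 2 and 0 in the other libraries. Fold changes of the H1 genes thus had both signs.

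Of the clustered H2A genes, Hist1h2ac had 896, 1044 and 1 reads in the WT libraries against 397, 994 and 1 in the Foxm1 HET libraries. Each genotype held 1 library in which it was nearly absent. For Hist1h2ac the log2 fold change was 0.92 (SE 2.38, adjusted p = 0.998, edgeR), or -2.41 without Foxm1 HET replicate 2. Hist3h2a, of the small Hist3 cluster on chromosome 11, had 312, 1218 and 534 reads in the WT libraries against 1147, 16 and 127 in the Foxm1 HET libraries, with a log2 fold change of -1.51 (SE 2.72, adjusted p = 0.998, edgeR). For Hist3h2a it became -3.56 with replicate 1 of Foxm1 HET left out and -0.94 with replicate 3 left out. The ranges of both genes overlapped.

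The clustered H2B genes had a summed RPM of 264, 19.5 and 58.3 in the WT libraries against 188, 50.6 and 12.9 in the Foxm1 HET libraries. None of the 15 genes reached 10 reads in every library. Hist1h2bg, the leading H2B gene, had 3114, 356 and 31 reads in the WT libraries against 916, 2 and 81 in the Foxm1 HET libraries, with a log2 fold change of -2.59 (SE 2.68, adjusted p = 0.998, edgeR). WT replicate 1 held most of its reads, and without it the log2 fold change was 0.09, against -5.40 without Foxm1 HET replicate 1.

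Hist1h2bm had 578, 60 and 858 reads in the WT libraries against 287, 0 and 18 in the Foxm1 HET libraries, and its log2 fold change was -3.36 (SE 3.07). Hist1h2bh had 815, 0 and 35 reads in the WT libraries against 24, 0 and 0 in the Foxm1 HET libraries, and its log2 fold change was -5.86 (SE 3.64). Hist1h2bn, in contrast, had 102, 0 and 15 reads in the WT libraries against 1420, 87 and 1 in the Foxm1 HET libraries, and its log2 fold change was 3.19 (SE 3.16). All of them overlapped between genotypes, with adjusted p of 0.993, 0.938 and 0.998 by edgeR. Without Foxm1 HET replicate 1 the log2 fold changes were -6.72 for Hist1h2bm, -11.09 for Hist1h2bh and 1.80 for Hist1h2bn. The value for Hist1h2bh depends on the prior count, because the remaining Foxm1 HET libraries are at 0. Without WT replicate 1 that of Hist1h2bh was -2.16 and that of Hist1h2bn 5.25. Between 55.7% and 86.4% of their coding stretches were shared with other genes.

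Of the 23 histone genes that did not pass the filter, 21 were clustered and 2 were variants. Their highest counts ran from 5 (Hist1h4h) to 2454 (Hist1h3f), and 12 of them reached 10 reads in a single library. Hist1h2ad had 260 reads in WT replicate 2 and 0 elsewhere, Hist1h2bc had 423 in Foxm1 HET replicate 1 and at most 5 elsewhere, and H1fx had 421 in Foxm1 HET replicate 1 and at most 2 elsewhere. Each of these 3 genes had nearly all of its reads in 1 library. In the fit to unfiltered counts and in limma on the normalized table, which tested all 23 genes, none had an adjusted p under 0.05. An unadjusted p under 0.05 was found for Hist1h3f in the unfiltered fit and for none of them in the normalized table.

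Among the variants, H2afy had the highest level of all histone genes, with a mean of 681 TPM (reads divided by gene length and scaled to the same total in each library). The mean of Hist1h4d was 271 TPM, and that of Hist2h3c1 was 301 TPM, or 41.8 TPM without WT replicate 2. MacroH2A1 is a large H2A variant found on silenced chromatin. H2afy, on the minus strand at chr13:56073622-56135550, had 5678, 13219 and 12768 reads in the WT libraries against 17473, 13271 and 19532 in the Foxm1 HET libraries. The Foxm1 HET counts were all above the WT counts, as was RPM, at 283, 574 and 593 in the WT libraries against 686, 911 and 757 in the Foxm1 HET libraries. With TMM scaling the genotypes overlapped, at a log2 CPM of 8.95 ± 0.85 (SD, n = 3) for WT against 9.57 ± 1.24 (SD, n = 3) for Foxm1 HET. A log2 fold change of 0.86 was estimated (SE 1.40, adjusted p = 0.998, edgeR), which was -0.18 without Foxm1 HET replicate 2.

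H2afz encodes H2A.Z, the variant placed at promoters, and H2afv its close relative H2A.V. H2afz had 543, 162 and 327 reads in the WT libraries against 75, 72 and 115 in the Foxm1 HET libraries. The Foxm1 HET counts were all below the WT counts, while log2 CPM with TMM scaling overlapped at 3.95 ± 0.95 (SD, n = 3) for WT against 2.01 ± 1.30 (SD, n = 3) for Foxm1 HET. The log2 fold change was -1.72 (SE 2.95, adjusted p = 0.998, edgeR), or -2.83 without Foxm1 HET replicate 2, and stayed below 0 in all 14 alternatives. Of the coding stretches of H2afz, 73.5% were found in other genes, and 62.6% of its counted bases lie opposite a gene on the other strand, so that its count is uncertain. H2afv had at most 112 reads, and its log2 fold change of -0.53 (SE 2.79) changed sign when WT replicate 2 was left out.

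H2afx had 197, 34 and 1192 reads in the WT libraries against 6274, 6 and 4230 in the Foxm1 HET libraries. It was highest in 2 Foxm1 HET libraries and almost missing from replicate 2, so the genotypes overlapped. Its log2 fold change was 1.65 (SE 2.24, adjusted p = 0.998, edgeR), or 4.05 without WT replicate 3 and 1.02 without Foxm1 HET replicate 1. H2afj had 356 reads in WT replicate 2, 29 and 31 in Foxm1 HET replicates 1 and 3 and 0 in the other libraries. The sign of its log2 fold change of -3.35 (SE 3.18) rested on WT replicate 2, without which it was 6.67. That last value depends on the prior count, because the remaining WT libraries are at 0.

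H3f3a and H3f3b encode the same protein, H3.3, which is deposited outside DNA replication. H3f3a had 473, 634 and 128 reads in the WT libraries against 248, 66 and 635 in the Foxm1 HET libraries. H3f3b had 5110, 516 and 1 reads in the WT libraries against 2085, 43 and 1453 in the Foxm1 HET libraries. Both genes overlapped between genotypes, and H3f3b was nearly absent from WT replicate 3. Log2 fold changes were -0.85 (SE 2.82, adjusted p = 0.998) for H3f3a and -1.40 (SE 2.23, adjusted p = 0.998) for H3f3b by edgeR, and that of H3f3b was 1.58 without WT replicate 1. That of H3f3a was -0.50 without WT replicate 2. Of the counted bases of H3f3a and H3f3b, 53.1% and 80.2% lie opposite an annotated gene on the other strand, and strand use in the counting is not given.

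H1f0 encodes H1.0, the linker histone of resting and differentiated cells. It had 62, 5616 and 33 reads in the WT libraries against 1814, 2201 and 1353 in the Foxm1 HET libraries. In reads, 1 WT library lay above the 3 Foxm1 HET libraries and the other 2 below them. Its log2 fold change was 0.73 (SE 1.89, adjusted p = 0.998, edgeR), and it was 5.82 without WT replicate 2 and -1.04 without Foxm1 HET replicate 2.

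Genes that serve histone supply were taken from a list of 41 genes for histone mRNA processing, transcription, chaperones and variant loading. Of the 38 tested, 14 had log2 fold changes above 0 and 24 below, with a median of -0.42, and none passed an adjusted or an unadjusted p of 0.05 by edgeR. DESeq2 called none of them either. Slbp, which encodes the protein that binds the stem-loops shown above, had 124, 2295 and 15 reads in the WT libraries against 3785, 435 and 1510 in the Foxm1 HET libraries, which overlapped. Its log2 fold change was 0.91 (SE 2.27, adjusted p = 0.998, edgeR). Atrx, a remodeler that loads H3.3, was the only gene of the list whose genotypes did not overlap in log2 CPM, with 4274, 6542 and 6595 reads in the WT libraries against 1650, 629 and 5517 in the Foxm1 HET libraries. Over all genes tested 8.68% did not overlap, and Atrx overlapped with library-size scaling. The smallest p values below 0 were those of Cabin1, Sympk and Supt16, with log2 fold changes of -2.45 (SE 1.76), -2.52 (SE 1.83) and -2.20 (SE 1.82). Those above 0 were of Lsm11, Set and Chaf1a, at 4.86 (SE 3.49), 2.41 (SE 1.79) and 2.27 (SE 1.81).

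A list of 28 S phase genes shares Slbp with the histone supply list, so that Slbp counts in both. All 28 were tested, 13 lay above 0 and 15 below, and the median log2 fold change was -0.44. None of them passed an adjusted or an unadjusted p of 0.05 by edgeR. Their summed CPM was 1553, 1131 and 2743 in the WT libraries against 1423, 1491 and 1075 in the Foxm1 HET libraries, which overlapped. Mcm3, a subunit of the replicative helicase, had 185, 31 and 63 reads in the WT libraries against 2382, 431 and 4969 in the Foxm1 HET libraries. Ccne1, the cyclin of the G1 to S transition, had 10, 1 and 0 reads in the WT libraries against 74, 9 and 237 in the Foxm1 HET libraries. Ccna2, the S and G2 phase cyclin, had 6860, 3406 and 17208 reads in the WT libraries against 5644, 141 and 3471 in the Foxm1 HET libraries. The genotypes did not overlap in log2 CPM for these genes, which lay in opposite directions, with log2 fold changes of 4.18 (SE 2.66), 4.13 (SE 3.16) and -2.60 (SE 1.67) and adjusted p of 0.941, 0.980 and 0.941 by edgeR. These were 3 of the 28 genes, against 8.68% of all genes tested, and Ccna2 overlapped with library-size scaling. Cdc6, Pola1 and Prim1 had log2 fold changes of -4.58 (SE 2.98), -3.34 (SE 2.88) and 2.14 (SE 2.01), and their genotypes overlapped. The 7 markers of cycling cells summed to between 977 and 2606 CPM in WT and between 614 and 1102 CPM in Foxm1 HET, and Top2a, Ccna2 and Ccnb1 among them were lower in log2 CPM in every Foxm1 HET library (4.55% over all genes). Their part in the histone values was not tested.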

How the data were processed

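LT-HSCs were sequenced in 6 libraries, 3 per genotype, grouped by the genotype labels. The authors aligned single reads of 50 bases to GRCm38 (mm10) with STAR 2.7.2b, and limma, without a version, is in the submitters' processing notes. They deposited raw read counts per gene, whose counting program, strand setting and treatment of multi-mapping reads are not given in the sources used here. They also deposited a normalized table, which is on a log2 scale by its values.

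Histone genes were selected by symbol in the normalized table and joined to counts by gene identifier. Counts were filtered by edgeR's default rule, scaled by TMM and compared with the quasi-likelihood test of edgeR 4.0.16 (R 4.3.3), with Benjamini-Hochberg adjustment over all 8195 genes. Standard errors were obtained by dividing each log2 fold change by the root of its F statistic. A prior count of 2 entered log2 CPM. Exact permutation tests were two-sided (scipy 1.17.1). The biological coefficient of variation was 1.66, and the precision is set by the spread between libraries. TPM was computed from counts and deposited gene lengths. Stem-loops and shared stretches came from GENCODE M21 (GRCm38), where genes overlapping the same locus were not counted as sharing, and promoters from RefSeq (GRCm38.p6).

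The members and gene lists were chosen with earlier results of these data known. Named were every variant tested, the 2 most abundant tested genes of each clustered class, up to 5 histone genes with the smallest p in each direction, any with an adjusted p under 0.05, Slbp, up to 3 genes per list and direction, and Foxm1. Other genes named, such as Hist1h3f, Hist2h3c2 and Atrx, were chosen after their values were seen.

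Alternatives were RLE scaling, scaling by library size, unfiltered counts, a floor of 10 counts in every library, DESeq2 1.42.0, limma-voom and limma on the normalized table (limma 3.58.1), the replicate number as a block, and each library left out. The edgeR, limma-voom and DESeq2 fits were tested on simulated data with much less spread between libraries than these data have. That test therefore cannot show how the fits perform at the spread seen here.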

Additional observations from a re-analysis of the deposited data

How the results depend on the processing

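Over the 14 alternatives, 0 histone genes were called except with DESeq2, which called 1 (Hist2h3c1), and no gene of the supply and S phase lists was called. The number called over all genes, 27 as reported, was 10 with RLE scaling, 7 with library-size scaling, 0 with at least 10 counts in every library, 194 with DESeq2, 4 with limma-voom and 0 with limma on the normalized table. Leaving out 1 library gave between 0 and 29 calls: 0 without WT replicate 1, WT replicate 2 or Foxm1 HET replicate 2 and 1 without WT replicate 3. Histone genes without overlap numbered 7 with library-size scaling and 8 without Foxm1 HET replicate 2, against 3, both chosen after seeing the data (without that library 19.0% of all genes did not overlap).

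Between libraries of the same replicate number, correlations of the deviations from the group means were 0.0162, -0.0253 and -0.0687. With 3 libraries per genotype, these values cannot show whether the libraries were paired. With the replicate number as a block, 0 genes were called, and no histone gene.

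The median log2 fold change of the clustered genes ran from -1.06 to 1.12 as each library was left out, and from -1.13 with at least 10 counts in every library to 1.02 with RLE scaling over the others. That of the variants ran from -1.01 to 0.89, with its highest value without WT replicate 2. All of these shifts but the last were smaller than the spread between libraries. The median of all genes moved from -0.26 with TMM to -0.13 with RLE and 0.10 with library-size scaling. Foxm1 stayed below 0 wherever it was tested, and with at least 10 counts in every library it was left out.

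Of 22 histone genes named, 14 kept their direction in every alternative that gave a value, and 23 of 294 values reversed. Hist1h4d reversed with library-size scaling (-0.26), at least 10 counts in every library (-0.19), limma-voom (-0.87), the block (-0.44) and the normalized table (-0.14), and ran from -1.20 to 0.47 as each library was left out. Hist1h2ac reversed with library-size scaling (-0.10), limma-voom (-1.16), the block (-0.49) and the normalized table (-0.72), and ran from -2.41 to 1.44. H2afj reversed with limma-voom (0.57) and the block (4.28) and ran from -3.98 to 6.67. H3f3b reversed with limma-voom (1.78) and the normalized table (0.87) and ran from -2.02 to 1.58. With a library left out, Hist1h2bg ran from -5.40 to 0.092, H2afv from -1.98 to 1.72 (0.01 without Foxm1 HET replicate 3), H1f0 from -1.04 to 5.82 and H2afy from -0.18 to 1.21. The cause of these reversals was not tested.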
